A study of Rattus norvegicus with 12 samples.

Results

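Retinoic acid metabolism was followed through 9 genes of the 22081 in the deposited rat gene table, with Aldh1a3 at the centre. The genes were Aldh1a1, Aldh1a2, Aldh1a3, Dhrs3, Crabp2, Rara, Rarb, Rarg and Cyp26b1, taken by symbol in all 12 libraries. They were chosen by a reader of earlier results of these data, in which the read counts of Aldh1a3 in stretched and static wild-type cells stood out, so that contrast of Aldh1a3 is given as a description with no test. All other tests below use some of the same libraries and are no independent support for the choice.

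The cells were primary aortic smooth muscle cells of Wistar rats at passages 5 to 8, grown in medium with 20% serum on silicone elastomer. The 4 groups, with 3 libraries each, were stretched Tsp1KO cells, static Tsp1KO cells, stretched wild-type (WT) cells and static WT cells. All cells were starved of serum for 24 h, and the stretched ones then received cyclic uniaxial stretch of 20% strain at 1.0 Hz, which is 60 cycles per min, for a time the labels do not give. Tsp1KO cells had been transfected with the px458 plasmid, which carries Cas9, GFP and a guide against Thbs1, the gene of thrombospondin-1, then sorted for GFP and cloned from single cells. The labels do not say how many clones were used or that WT cells were cloned, so genotype and clone cannot be told apart. The labels do not tell whether each of the 3 libraries had its own culture, so every p-value reflects sample-to-sample spread alone, part or all of which may be technical.

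The libraries held 16766965 to 38024110 exon reads. Thbs1 itself had 283 to 637 CPM (exon reads scaled to a common library size) in the 6 Tsp1KO libraries, against 1052 to 3183 CPM in the 6 WT libraries. Tsp1KO minus WT was -2.26 ± 0.23 on the log2 scale in static culture (SE, FDR 3.96e-05), and the labels do not locate the cut within the gene. The libraries numbered 3 stood apart in every group, with 9.15% to 11.3% of gene reads in introns, against 14.8% to 16.5% in those numbered 1 and 2. Library 3 of stretched Tsp1KO cells also had 16.4% of exon reads across exon junctions, against 28.1% to 29.8% in the other 11. The smooth muscle markers Acta2 and Tagln were abundant, at 1255 ± 114 and 2235 ± 334 CPM in static Tsp1KO cells and 2168 ± 180 and 2237 ± 241 CPM in static WT cells (SD, n = 3 each). The other markers of the list of 8 had lower means. Among them Myh11 and Des held 26.4 ± 3.05 and 2.88 ± 0.938 CPM in static Tsp1KO cells. In static WT cells Myh11 and Des held 16.3 ± 2.73 and 2.20 ± 0.430 CPM. In bulk samples, fewer cells of a type and less RNA per cell cannot be told apart.

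Retinoic acid is made from vitamin A: dehydrogenases turn retinol into retinal, and the enzymes Aldh1a1, Aldh1a2 and Aldh1a3 oxidise retinal to retinoic acid. Dhrs3 reduces retinal back to retinol, Crabp2 carries retinoic acid to the nucleus, the receptors Rara, Rarb and Rarg bind it and act on genes together with retinoid X receptors, and Cyp26b1 hydroxylates it for removal. In vascular smooth muscle, retinoic acid is known as a brake on proliferation, and Rarb, Cyp26b1 and Dhrs3 are known in many tissues as genes that retinoic acid itself induces.

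Promoter windows from RefSeq on the build GRCr8 (250 bases before to 50 after the annotated start) were found for all 9 genes, with 2 windows for Rarg. The stretch shown for Aldh1a3 is the 250 bases before the start of the gene whose reads changed with stretch and genotype, at chr1:129427644-129427893 on the minus strand. The stretch for Cyp26b1 is the same interval of the gene with the largest log2 difference between the genotypes among those called in static culture, at chr4:118616177-118616426 on the minus strand, with its AP-1 match in capitals. The stretch for Rarb is 30 bases at chr15:11336410-11336439 on the plus strand, and its capitals mark a direct repeat of the receptor hexamer and the 5 bases between its copies.
Aldh1a3: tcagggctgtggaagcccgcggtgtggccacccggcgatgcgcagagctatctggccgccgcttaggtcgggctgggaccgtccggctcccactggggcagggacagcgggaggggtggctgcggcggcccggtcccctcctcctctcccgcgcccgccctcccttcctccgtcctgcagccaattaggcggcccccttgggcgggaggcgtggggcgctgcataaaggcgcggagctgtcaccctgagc
Cyp26b1: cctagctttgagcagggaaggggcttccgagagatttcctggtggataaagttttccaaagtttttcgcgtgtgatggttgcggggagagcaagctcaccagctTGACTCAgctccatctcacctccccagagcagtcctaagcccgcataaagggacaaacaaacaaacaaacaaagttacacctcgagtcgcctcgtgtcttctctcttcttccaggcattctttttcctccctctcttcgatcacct
Rarb: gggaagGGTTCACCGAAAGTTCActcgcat

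The search covered both strands of each window. The receptor hexamer was searched as AGGTCA, also as AGTTCA, also as GGGTCA and also as GGTTCA, in direct repeats with 5, 2 or 1 bases between the copies. The other motifs were AP-1 as TGACTCA or TGAGTCA, TEAD as GGAATG and the TATA box as TATAAA. Of the 10 windows, Rarb had the direct repeat with 5 bases between its copies, from base 25 to base 41 after the start, a form held by 0.382% of 33469 rat windows. Cyp26b1 had the AP-1 form that 4.63% of all windows hold, 146 bases before its start. The other 8 windows held no such repeat, AP-1 or TEAD match, though 1 Rarg window held a single AGGTCA, which 16.2% of all windows hold, and the Crabp2 window held TATAAA from 73 bases before its start. The Aldh1a3 window, among these 8, was 73.6% G and C before its start against a median of 51.2% over all windows. Aldh1a2, 1 Rarg window and Rara had similar shares, at 77.2%, 74.8% and 72.4%. Crabp2, the other Rarg window, Cyp26b1, Dhrs3 and Aldh1a1 had 63.2%, 52.4%, 50.4%, 49.6% and 46.4%. The repeat with 2 bases between copies was in 0.17% of all windows, that with 1 base in 0.233%, TEAD in 14.2% and TATAAA in 14.2%. A match describes letters only, and nothing about binding was measured.

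Levels per length, as the authors' RPKM (reads scaled to exon length and library size), placed the receptors Rarg and Rara above every enzyme of the set. Rarg averaged 23.1 ± 2.83 RPKM in static Tsp1KO cells and 25.7 ± 3.42 RPKM in static WT cells (SD, n = 3 each). Rara averaged 14.9 ± 2.23 RPKM in static Tsp1KO cells and 14.8 ± 2.30 RPKM in static WT cells. Aldh1a3 came next in the order of the group means, at 6.25 ± 0.72 RPKM in static Tsp1KO cells and 3.43 ± 0.0906 RPKM in static WT cells, and Dhrs3 followed. Crabp2, Aldh1a1, Rarb and Cyp26b1 had group means from 0.187 to 1.32 RPKM, and Aldh1a2 stayed at or below 0.187 RPKM in every library.

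**Figure D1:**
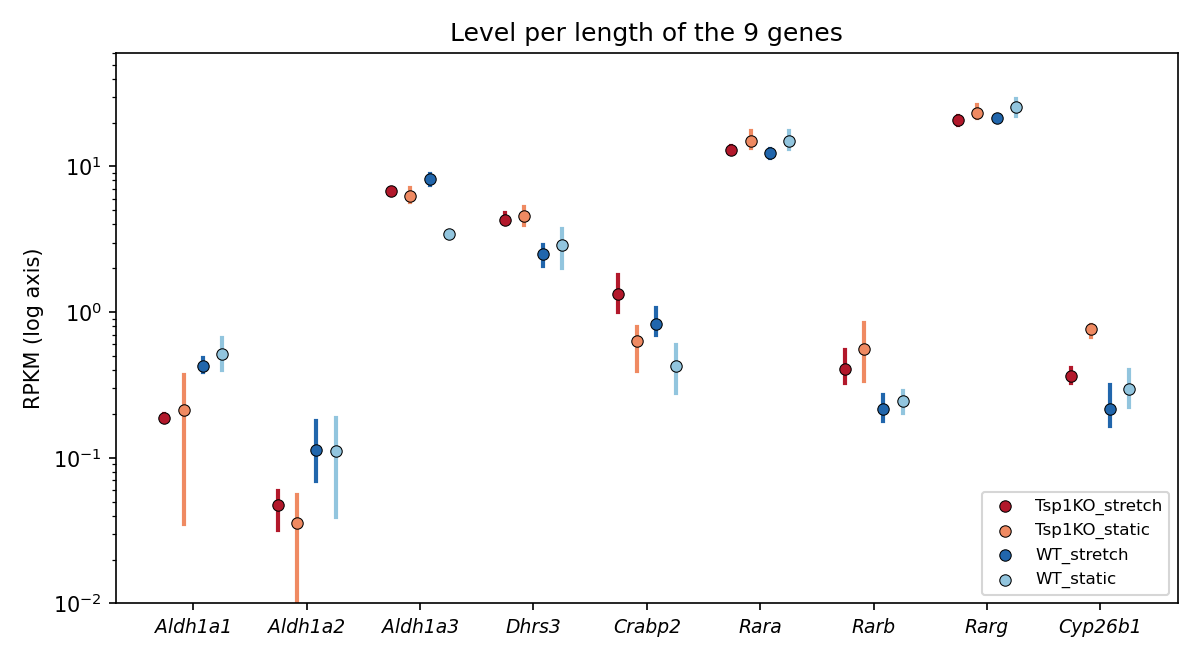
RPKM of the 9 genes on a log axis in stretched Tsp1KO, static Tsp1KO, stretched WT and static WT cells, with points for group means and lines for the range of 3 libraries (the line for Aldh1a2 in static Tsp1KO cells runs down to a library with 0). Rarg and Rara lie highest, and of the retinal-oxidising enzymes Aldh1a3 lies well above Aldh1a1 and Aldh1a2.

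Counts were tested with edgeR across 14825 genes, and a gene was called at a Benjamini-Hochberg adjusted p (FDR) under 0.05. Of the 9 genes, 8 passed the filter on low counts and Aldh1a2 did not. The test was run without and with the library number as a replicate block, because same-numbered libraries deviated together. In static culture 4 of the 8 rose in Tsp1KO against WT cells (Aldh1a3, Cyp26b1, Dhrs3 and Rarb) and 0 fell, where 20.8% of all genes were called. With the replicate block the same 4 rose and Aldh1a1 fell, against 37.6% of all genes. Under stretch 1 of 8 rose in Tsp1KO against WT cells (Dhrs3), where 20.6% of all genes were called. With the block Dhrs3 and Cyp26b1 rose and Aldh1a1 and Aldh1a3 fell, against 37.3%. Both comparisons use WT libraries of the contrast that chose Aldh1a3, so nothing is read from its place in these counts.

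Stretch itself moved few genes. In Tsp1KO cells 0 of the 8 were called, where 0.796% of all genes were called, and with the replicate block Cyp26b1 fell, against 4.42%. In WT cells the 1 gene called was Aldh1a3, where 0.742% of all genes were called, or 6.37% with the block; this is the contrast that chose the genes, so nothing is read from that count. The interaction, which is the stretch response of Tsp1KO cells minus that of WT cells, was called for 0 of 8 genes and for 0% of all genes. There edgeR gave 336 of 14825 genes at an unadjusted p under 0.05, and 921 with the replicate block. Evenly spread p-values would put a share of 0.05 there, and 336 lies below that share and 921 above it. DESeq2 called 9 genes. The replicate block called 2 genes, or 0.0135%, of which Aldh1a3 was 1 and Vegfc the other. The interaction contains the contrast that chose the genes, so nothing is read from the call of Aldh1a3.

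The median log2 fold change of the 8 genes was 0.57 for Tsp1KO minus WT in static culture and 0.32 under stretch, beside 0.01 and -0.00 over all genes tested. For stretch minus static it was -0.18 in Tsp1KO cells and -0.21 in WT cells, beside -0.00 and 0.01 over all genes. Each of these medians includes Aldh1a3, whose counts in the WT libraries chose the genes. The 4 pairwise comparisons share libraries in pairs, so their values are set side by side and not compared as independent results. Where groups are said below to part or not to overlap, this describes the libraries only. The share of all genes that part in the same way was not counted, so such separation adds no support to a call.

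**Figure D2:**
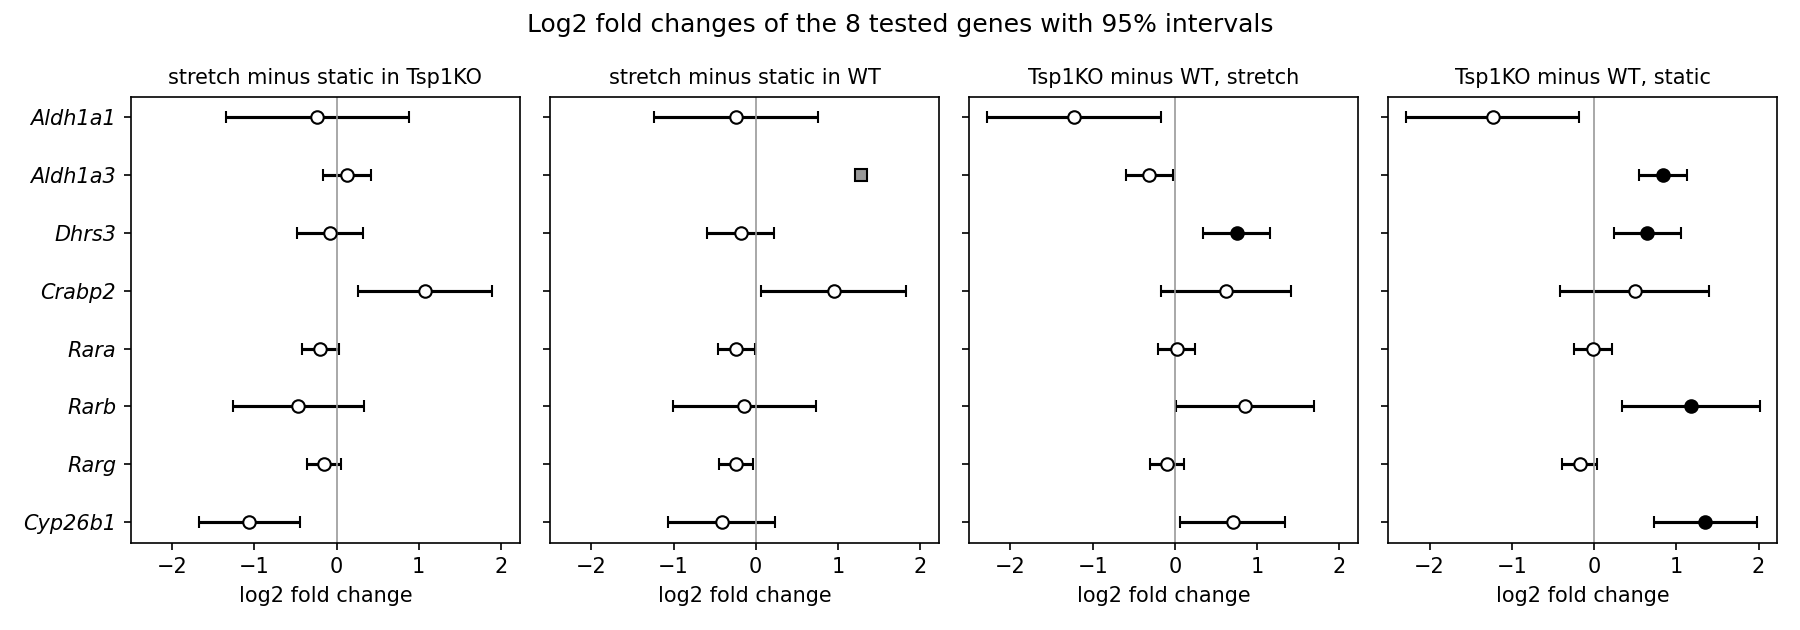
Log2 fold changes (x axis) of the 8 tested genes with 95% intervals in the 4 pairwise comparisons; filled circles mark FDR under 0.05 without the replicate block, and the grey square, with no interval, is the Aldh1a3 contrast given with no test. In static culture the filled circles for Tsp1KO minus WT are Aldh1a3, Dhrs3, Rarb and Cyp26b1, from 0.65 to 1.35.

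Aldh1a3 encodes the retinal-oxidising enzyme that made up most of this family's messenger RNA here (ENSRNOG00000052070, chromosome 1 from 127301128 to 127337882 in Rnor_6.0, 13 exons). The libraries held 263 to 1156 Aldh1a3 exon reads. Libraries 1, 2 and 3 held 33.03, 32.0 and 26.9 CPM in stretched Tsp1KO cells. Static Tsp1KO cells held 32.6, 26.4 and 25.2 CPM. Stretched WT cells held 39.6, 41.3 and 32.9 CPM, against 16.6, 15.8 and 14.5 CPM in static WT cells. All 3 static WT libraries lay below the other 9. In the order static WT, static Tsp1KO, stretched Tsp1KO and stretched WT, static WT parted from its neighbour without overlap, and the other neighbours overlapped.

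**Figure D3:**
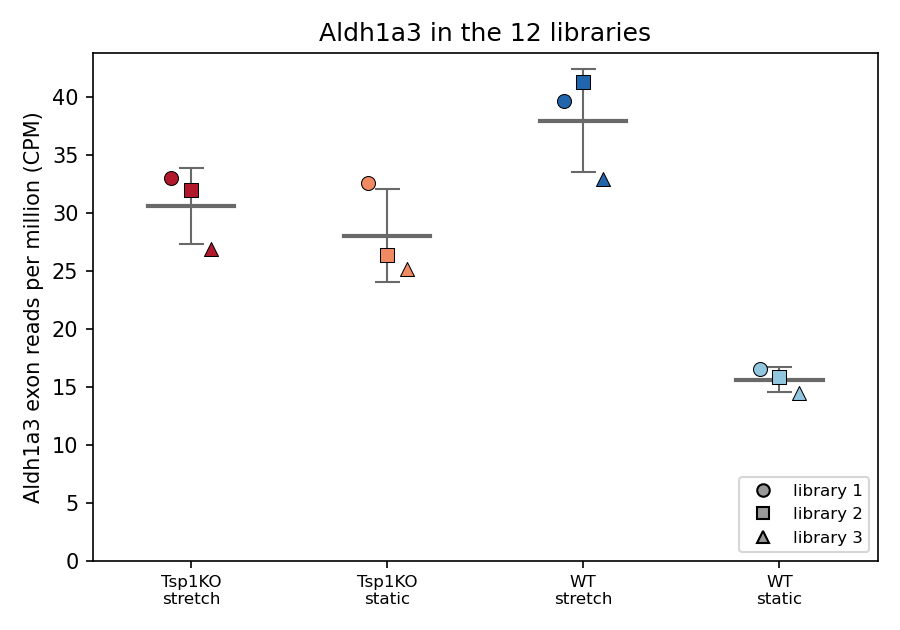
Aldh1a3 CPM in each library, by group, with points for libraries, thick lines for the mean and whiskers for the SD of 3 libraries. The 3 static WT libraries lie between 14.5 and 16.6 CPM, and the other 9 between 25.2 and 41.3 CPM.

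Stretch of WT cells went with 38.0 ± 4.44 CPM of Aldh1a3, against 15.6 ± 1.05 CPM in static WT cells (SD, n = 3 each), a log2 fold change of 1.28 ± 0.13 (SE). In Tsp1KO cells the levels were 30.6 ± 3.28 CPM stretched and 28.0 ± 3.97 CPM static, a log2 fold change of 0.13 ± 0.13 (FDR 1.00, and 0.434 with the replicate block). The 95% interval of the Tsp1KO change ran from -0.16 to 0.42. The authors' deposited table gives signed fold changes of 1.10 for stretch in Tsp1KO cells and 2.44 for stretch in WT cells, positive where the stretched group is higher.

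In static culture Aldh1a3 was higher in Tsp1KO than in WT cells, by a log2 fold change of 0.84 ± 0.13 (FDR 0.000783), and all 3 Tsp1KO libraries lay above all 3 WT libraries. The authors' deposited table gives a fold change of 1.80 here with an FDR of 0.000103. Under stretch the sign was the other way, at -0.31 ± 0.13 (FDR 0.130, and 0.00591 with the replicate block), with overlapping groups. Among the libraries numbered 1 and 2 alone these values were 0.84 (FDR 7.72e-05) in static culture and -0.32 (FDR 0.0239) under stretch. Both comparisons use WT libraries of the contrast that chose Aldh1a3. None of these FDRs is therefore independent of that choice.

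The interaction for Aldh1a3 was -1.15 ± 0.19, the Tsp1KO response minus the WT response. Its unadjusted p in edgeR, 6.86e-05, was the smallest of 14825 genes, and its FDR was 0.827. With the replicate block it was again the gene of smallest p, at an FDR of 0.00357; DESeq2 gave 0.000215, and libraries 1 and 2 alone gave 0.0329. Over all 20 alternatives the FDR ran from 0.000215 to 1.00. With any single library left out the interaction lay between -1.25 and -1.04, and its FDR between 0.529 and 1.00. The interaction contains the WT stretch contrast that chose Aldh1a3. Neither its rank nor any of these FDRs is therefore an independent finding.

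Reads in Aldh1a3 introns, which the fit did not use, numbered 40 to 113 per library. They come from the same libraries, among them the WT ones that chose Aldh1a3, so they are no independent view. Below they are scaled to the total intron reads of the library (intron CPM). They were 13.3 to 22.1 in stretched Tsp1KO cells and 15.5 to 25.7 in static Tsp1KO cells, which overlap. They were 19.9 to 21.6 in stretched WT cells and 13.1 to 16.1 in static WT cells, which do not. The WT means, 20.5 and 14.6, lie closer together than the exon means of the same libraries. Introns took 9.32% of all Aldh1a3 reads, and 99.9% of its exon reads mapped uniquely.

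Aldh1a1, the broadly expressed enzyme of the family, was lower in Tsp1KO cells in both conditions. It held 0.602, 0.538 and 0.497 CPM in stretched Tsp1KO cells, against 1.26, 1.18 and 1.40 CPM in stretched WT cells. Static Tsp1KO cells held 0.105, 0.695 and 1.02 CPM, against 1.45, 1.20 and 1.87 CPM in static WT cells. All 6 Tsp1KO libraries lay below all 6 WT libraries, a separation whose share among all genes was not counted. The log2 fold change was -1.23 ± 0.48 in static culture (FDR 0.0952, and 0.0369 with the replicate block). Under stretch it was -1.23 ± 0.48 as well (FDR 0.102, and 0.0479 with the block). Among libraries 1 and 2 alone it was -1.66 in static culture (FDR 0.0382) and -1.09 under stretch (FDR 0.135). With a library left out the static value lay between -1.84 (FDR 0.0307, without static Tsp1KO library 3) and -0.81 (FDR 0.0843, without static Tsp1KO library 1), with an FDR of up to 0.248. Among these fits only the first passed in static culture, and the stretch value passed at -1.23 (FDR 0.00710) without static Tsp1KO library 1. The counts were low, at 2 to 45 reads per library, and 85.0% of them mapped uniquely; rodents carry the near copy Aldh1a7, so the split of reads between the 2 genes is uncertain.

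Aldh1a2, known for making retinoic acid in the embryo and in mesothelium, had 0 to 15 exon reads per library and was not tested. Of its reads 91.5% fell in introns. Per length, Aldh1a3 made up 96.4% to 97.0% of the summed RPKM of the 3 enzymes in stretched Tsp1KO cells and 93.4% to 98.8% in static Tsp1KO cells. Its share was 91.8% to 95.1% in stretched WT cells, against 79.7% to 88.6% in static WT cells. The share was lowest in static WT cells, where no library reached the range of any other group.

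Dhrs3, the reductase that returns retinal to retinol, was higher in Tsp1KO cells in both conditions. It held 11.7, 11.5 and 12.3 CPM in stretched Tsp1KO cells, against 5.98, 7.22 and 7.87 CPM in stretched WT cells. Static Tsp1KO cells held 11.2, 12.7 and 13.6 CPM, against 8.26, 5.65 and 9.94 CPM in static WT cells. No Tsp1KO library overlapped a WT library. The rise was 0.75 ± 0.18 on the log2 scale under stretch (FDR 0.0125) and 0.65 ± 0.18 in static culture (FDR 0.0275). The authors' deposited table gives a fold change of 1.68 under stretch with an FDR of 0.0243, and 1.57 in static culture with an FDR of 0.0710, which does not pass. Among libraries 1 and 2 alone it was 0.80 under stretch (FDR 0.00448) and 0.75 in static culture (FDR 0.00793).

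The static rise of Dhrs3 lost its call without static WT library 1 (FDR 0.0690), static WT library 2 (0.0719), stretched WT library 2 (0.0549), static Tsp1KO library 2 (0.0744) or static Tsp1KO library 3 (0.0873). The stretch value lost its call without stretched WT library 1 (FDR 0.0600) or library 2 (0.0560). The stretch responses of Dhrs3 were -0.08 ± 0.18 in Tsp1KO cells (FDR 1.00) and -0.18 ± 0.19 in WT cells (FDR 0.904).

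Crabp2, the carrier that hands retinoic acid to its receptors, had 5 to 65 reads per library. It held 1.28, 1.08 and 1.79 CPM in stretched Tsp1KO cells, against 0.791, 0.859 and 0.390 CPM in static Tsp1KO cells. Stretched WT cells held 0.773, 1.18 and 0.770 CPM, against 0.661, 0.300 and 0.416 CPM in static WT cells. Within each genotype no stretched library overlapped a static one. The log2 fold changes were 1.07 ± 0.37 in Tsp1KO cells (FDR 0.398) and 0.95 ± 0.40 in WT cells (FDR 0.466), and neither passed with the block. Among libraries 1 and 2 alone they were 0.52 in Tsp1KO cells (FDR 0.637) and 0.95 in WT cells (FDR 0.327). Only 71.6% of its exon reads mapped uniquely and introns took 70.0% of its reads, so its level is uncertain.

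The receptor genes divided by level. Rarg, with 109 to 117 CPM in stretched Tsp1KO cells and 120 to 136 CPM in static Tsp1KO cells, had a log2 fold change of -0.16 ± 0.10 (FDR 0.862). In WT cells it held 119 to 125 CPM stretched and 124 to 154 CPM static, at -0.24 ± 0.10 (FDR 0.435). Its groups overlapped in WT cells and parted in Tsp1KO cells. Rara held 58.1 to 60.4 CPM in stretched Tsp1KO cells and 63.6 to 75.3 CPM in static Tsp1KO cells, at -0.20 ± 0.10 (FDR 0.761). In WT cells Rara held 54.5 to 61.2 CPM stretched and 61.4 to 77.3 CPM static, at -0.24 ± 0.10 (FDR 0.495). Stretched and static libraries of Rara did not overlap in either genotype, yet none of these 4 changes passed the test, with or without the block. Between the genotypes Rara differed by -0.01 ± 0.10 in static culture, with a 95% interval from -0.24 to 0.21.

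Rarb, the receptor gene that carries the direct repeat shown above, was the scarce one. Static Tsp1KO cells held 3.53, 2.09 and 1.30 CPM, against 0.867, 1.20 and 0.957 CPM in static WT cells. Stretched Tsp1KO cells held 1.44, 2.30 and 1.24 CPM, against 0.773, 1.14 and 0.805 CPM in stretched WT cells. All 6 Tsp1KO libraries lay above all 6 WT libraries, though how many of all genes parted in this way was not counted. The log2 fold change was 1.18 ± 0.38 in static culture (FDR 0.0498, and 0.0205 with the block) and 0.85 ± 0.38 under stretch (FDR 0.153). Among libraries 1 and 2 alone the static value was 1.43 (FDR 0.0160).

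The static call of Rarb lies at the edge. It was lost in 11 of 20 alternatives, among them 9 of the 12 that leave out a library: each static WT library, each stretched WT library, static Tsp1KO libraries 1 and 2, and stretched Tsp1KO library 1. The FDR ran from 0.0142 to 0.208 when a library was left out, the highest without static Tsp1KO library 1, where the log2 fold change was 0.75. Each library held 19 to 67 Rarb exon reads, and 74.9% of all its reads fell in introns.

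Cyp26b1, the enzyme that clears retinoic acid, had the widest genotype difference of the called genes in static culture. Static Tsp1KO cells held 4.16, 5.03 and 4.61 CPM, against 1.40, 2.46 and 1.58 CPM in static WT cells. Stretched Tsp1KO cells held 2.05, 2.20 and 2.35 CPM, against 1.10, 1.96 and 0.979 CPM in stretched WT cells. All 3 static Tsp1KO libraries lay above the other 9. The log2 fold change between genotypes was 1.35 ± 0.28 in static culture (FDR 0.00543), and 1.27 among libraries 1 and 2 alone (FDR 0.0121). The authors' deposited table gives a fold change of 2.58 there with an FDR of 0.000407.

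Under stretch the genotype difference of Cyp26b1 was 0.70 ± 0.29 (FDR 0.121, and 0.0300 with the replicate block), and it passed without stretched WT library 2, at 1.05 (FDR 0.0252). Stretch minus static was -1.06 ± 0.28 in Tsp1KO cells (FDR 0.175, 0.0260 with the block and 0.00960 in DESeq2), where the groups did not overlap. It was -0.41 ± 0.30 in WT cells (FDR 0.802), where they did. The interaction was -0.65 ± 0.41 (FDR 1.00), so the responses of the genotypes were not shown to differ.

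**Figure D4:**
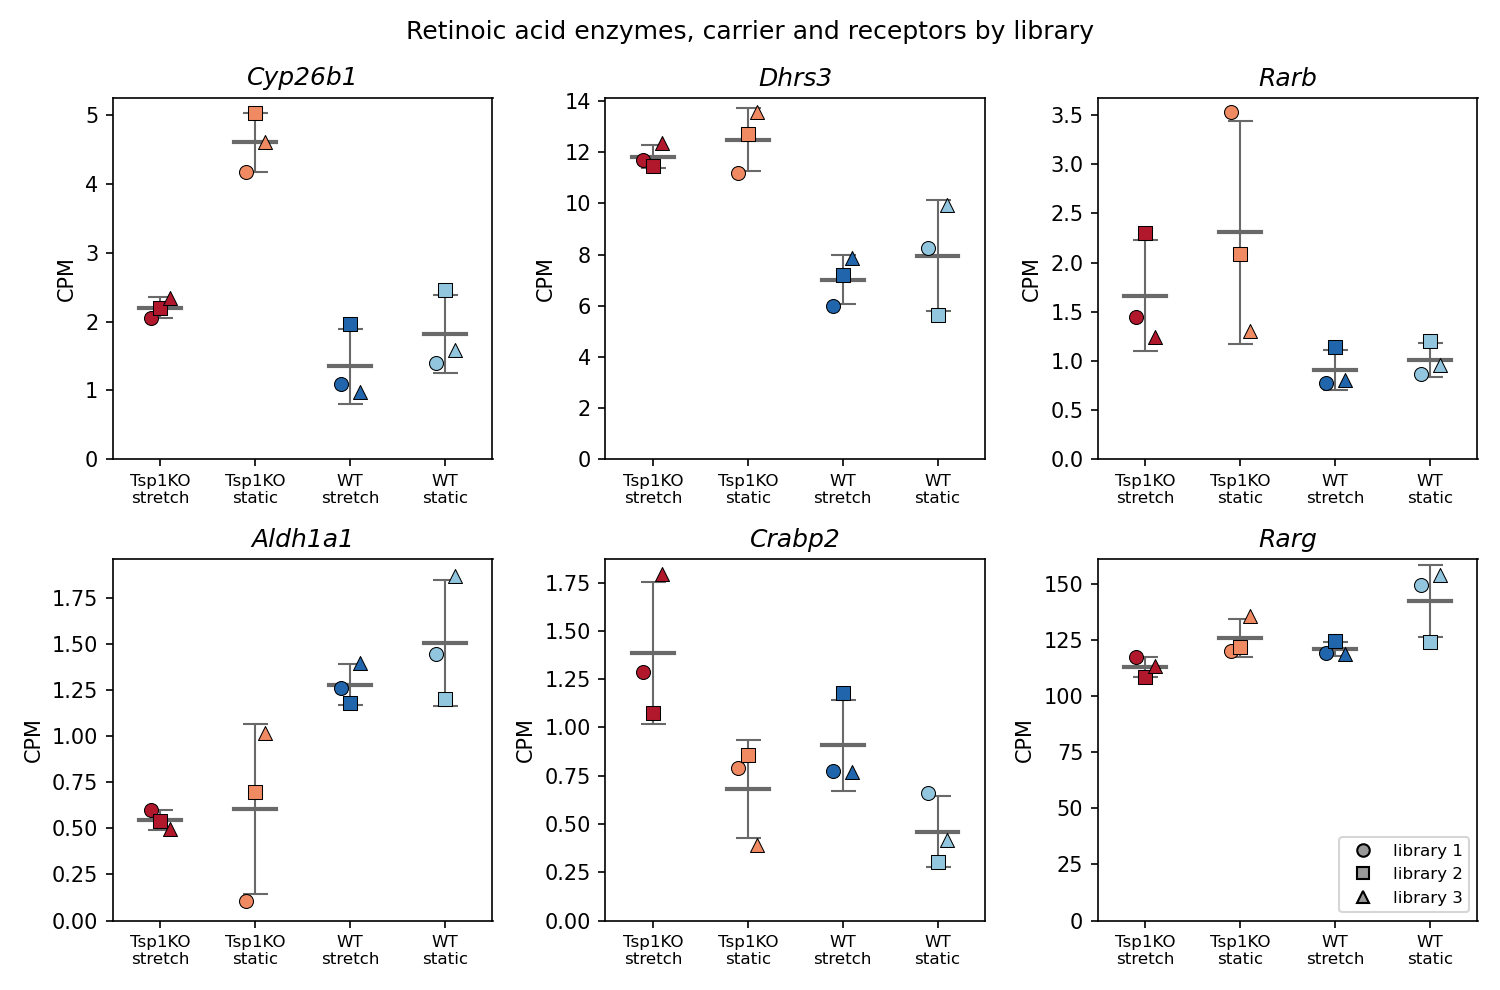
CPM of Cyp26b1, Dhrs3, Rarb, Aldh1a1, Crabp2 and Rarg in each library by group, with points for libraries, thick lines for means and whiskers for the SD of 3 libraries; each panel has its own axis from 0. Cyp26b1, Dhrs3 and Rarb lie higher and Aldh1a1 lower in static Tsp1KO than in static WT cells.

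The genes whose levels followed Aldh1a3 most closely over the 12 libraries were named by Pearson's r of log2 CPM among 9867 genes, as a description of libraries that share their groups. They were Sp140 (0.91), Tnfaip6 (0.88), Msantd3 (0.86), Cerk (0.85), Adss (0.84), Ift81 (0.84), Slc39a10 (0.83) and Actn1 (0.83). Tnfaip6, which encodes a secreted hyaluronan-binding protein, averaged 37.1 CPM in stretched and 19.9 CPM in static Tsp1KO cells, and 38.3 CPM in stretched and 11.8 CPM in static WT cells. Among the 8 genes, r with Aldh1a3 was 0.65 for Crabp2, -0.64 for Rara and -0.71 for Rarg, and -0.38 to 0.21 for the others.

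Genes that handle retinoids before the aldehyde step were called between the genotypes, and for stretch only with the replicate block. Of 6 tested genes of retinoid uptake, storage and binding, 2 rose and 1 fell in static Tsp1KO cells, with or without the block. Of all genes 20.8% were called there without the block and 37.6% with it. Rbp2, a retinol-binding protein known from the intestine, rose by 3.57 ± 0.40 to 2.81 ± 0.435 CPM in static Tsp1KO cells, against 0.238 ± 0.0675 CPM in static WT cells (FDR 3.77e-05). Lpl, the lipase that frees retinyl esters and fats for uptake, fell by 3.11 on the log2 scale (FDR 0.000256). The list's median was 0.07 in static culture, beside 0.01 over all genes. For stretch 0 of its genes were called in either genotype without the block. Of all genes 0.796% were called there in Tsp1KO cells and 0.742% in WT cells. With the block Scarb1, a lipoprotein receptor that also takes up carotenoids, fell in Tsp1KO cells (FDR 0.00517), where 4.42% of all genes were called.

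Of 12 tested retinol and retinal oxidoreductases, 4 rose and 2 fell in static Tsp1KO cells, where 20.8% of all genes were called, with a median of 0.20 beside 0.01 over all genes. Rdh5, known in the eye as a retinol dehydrogenase, rose by 2.33 ± 0.23 to 7.32 ± 0.801 CPM in static Tsp1KO cells, against 1.44 ± 0.284 CPM in static WT cells (FDR 2.43e-05). Retsat, the retinol saturase, rose by 0.63 ± 0.11 (FDR 0.00200). Adh7, an alcohol dehydrogenase that oxidises retinol, fell by 1.11 on the log2 scale, at 67.9 ± 5.84 CPM in static Tsp1KO and 146 ± 10.4 CPM in static WT cells (FDR 1.53e-05). Rdh13 fell by 0.74 (FDR 0.0120). Rdh10, the enzyme known to supply retinal in the embryo, held 8.19 ± 1.00 CPM in static Tsp1KO and 7.37 ± 1.03 CPM in static WT cells and was not called. For stretch 0 of the 12 were called without the block. Of all genes 0.796% were called there in Tsp1KO cells and 0.742% in WT cells. With the block Adh7 fell in Tsp1KO cells (FDR 0.0482), where 4.42% of all genes were called. In WT cells Rdh11 rose (FDR 0.0242) and Dhrs9 fell (FDR 0.0235) with the block, against 6.37% of all genes.

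Of 3 tested carriers and degrading enzymes other than the 9 genes, 1 rose and 1 fell in static Tsp1KO cells, where 20.8% of all genes were called. Cyp2s1 rose by 1.04 ± 0.29 (FDR 0.0240) and Fabp5, a fatty acid carrier that also binds retinoic acid, fell by 0.78 (FDR 0.0218). Among 10 tested retinoid X receptors and coregulators, 0 were called in static culture, where 20.8% of all genes were called. With the replicate block 7 fell, against 37.6% of all genes. The median was -0.34 without the block, beside 0.01 over all genes. Ncor1, a corepressor, stood at 145 ± 36.7 CPM in static Tsp1KO cells and 186 ± 40.1 CPM in static WT cells. Under stretch 1 of the 10 was called in Tsp1KO against WT cells, where 20.6% of all genes were called. This was Rxra, the partner receptor, which fell by 0.66 (FDR 0.0207).

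Genes listed as retinoic acid responses in other systems moved both ways. Of 17 tested, 6 rose and 8 fell in static Tsp1KO cells, where 20.8% of all genes were called. The median was -0.51 beside 0.01 over all genes. Under stretch 4 rose and 7 fell, where 20.6% of all genes were called, with a median of -0.38 beside -0.00 over all genes. Rarres2, which encodes the chemoattractant chemerin, rose by 2.18 ± 0.65 in static culture (FDR 0.0301), and Pdk4, the pyruvate dehydrogenase kinase, by 1.15 ± 0.36 (FDR 0.0413). Rarres2 was low, at 1.25 ± 0.126 CPM in static Tsp1KO cells and 0.262 ± 0.242 CPM in static WT cells. Rarres1 fell by 1.65 (FDR 0.0228) and the homeobox gene Cdx1 by 1.31 (FDR 0.0196), both with under 1 CPM in every group. For stretch in WT cells 1 of the 17 rose, where 0.742% of all genes were called. With the block 2 rose and 1 fell, against 6.37% of all genes. The gene called without the block was Btg2, an antiproliferative gene, at 31.6 ± 1.498 CPM stretched and 20.4 ± 1.83 CPM static (FDR 0.0127). For stretch in Tsp1KO cells 0 of the 17 were called without the block, against 0.796% of all genes, and 1 rose with it, against 4.42%.

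Of 14 other aldehyde dehydrogenases tested, 7 rose and 1 fell in static Tsp1KO cells, where 20.8% of all genes were called, with a median of 0.28 beside 0.01 over all genes. Under stretch 6 rose and 0 fell, where 20.6% of all genes were called. Aldh3a1, an enzyme for aldehydes of lipid peroxidation, rose by 5.19 ± 0.41 to 69.1 ± 16.1 CPM in static Tsp1KO cells, against 1.86 ± 0.521 CPM in static WT cells (FDR 7.14e-06). The folate enzymes Aldh1l1 and Aldh1l2 rose by 2.91 ± 0.40 (FDR 0.000255) and 2.36 ± 0.10 (FDR 6.61e-08). Aldh1a7 fell by 1.79 (FDR 0.00465), and only 56.4% of its exon reads mapped uniquely. For stretch 0 of the 14 were called in WT cells, where 0.742% of all genes were called. In Tsp1KO cells 1 fell, against 0.796% of all genes. This was Aldh6a1, by 0.41 (FDR 0.0341), with 60.9% of its reads mapping uniquely. With the block 4 fell in WT cells (Aldh2, Aldh3b1, Aldh4a1 and Aldh6a1), against 6.37% of all genes. In Tsp1KO cells 3 fell and 1 rose with the block, against 4.42%.

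**Figure D5:**
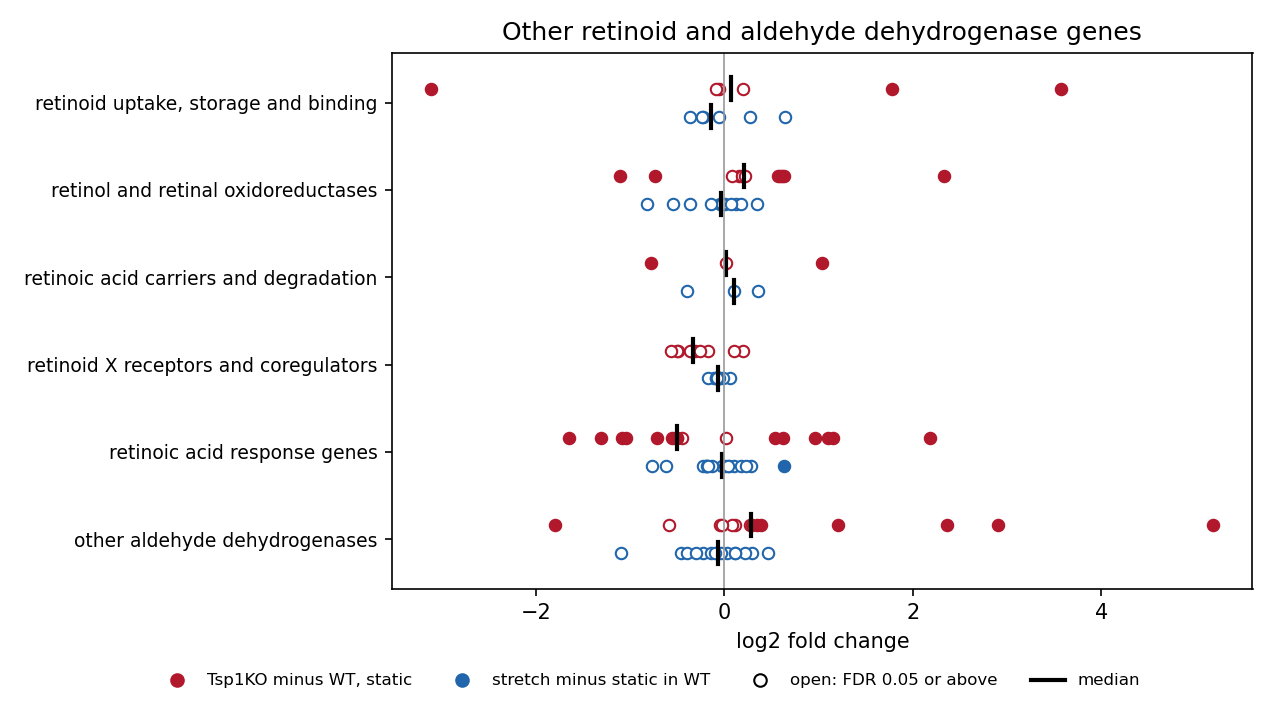
Log2 fold change (x axis) of the tested genes of 6 retinoid and aldehyde dehydrogenase lists for Tsp1KO minus WT in static culture (red) and stretch minus static in WT cells (blue); filled points have an FDR under 0.05 and black bars are medians. Aldh3a1, at 5.19, is the filled red point farthest to the right, and Btg2, at 0.63, is the filled blue point.

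Some markers of other cells also differed between the genotypes. Of 8 tested mesothelial markers 5 rose and 1 fell in static Tsp1KO cells, where 20.8% of all genes were called. The summed level over 9 mesothelial genes was 186 to 212 CPM in static Tsp1KO and 35.3 to 42.6 CPM in static WT cells. Most of that sum was Upk1b, at 128 ± 7.83 CPM in static Tsp1KO and 1.92 ± 0.201 CPM in static WT cells. Wt1, the defining transcription factor of mesothelium, was the marker that fell, at 0.392 ± 0.188 CPM in static Tsp1KO and 1.13 ± 0.190 CPM in static WT cells, and Krt19, too low to test, held 0.499 ± 0.207 CPM in static Tsp1KO and 0.117 ± 0.0787 CPM in static WT cells.

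Of 7 tested fibroblast markers 2 rose and 1 fell in static Tsp1KO cells, where 20.8% of all genes were called. Their sums were 762 to 810 CPM in static Tsp1KO and 510 to 554 CPM in static WT cells. Endothelial markers summed to 6.06 to 7.80 CPM in static Tsp1KO and 11.3 to 15.3 CPM in static WT cells, and leukocyte markers to 2.62 to 3.23 CPM in static Tsp1KO and 3.60 to 6.32 CPM in static WT cells. In each list 1 marker was called. These were Tek, at 4.12 ± 0.677 CPM in static Tsp1KO and 8.87 ± 1.37 CPM in static WT cells, and Laptm5, at 0.251 ± 0.173 and 2.74 ± 1.07 CPM. Cd68, Csf1r and Ptprc had higher means in static Tsp1KO cells, and Itgam had a lower one. Of the 8 smooth muscle markers 2 rose (Smtn and Synpo2) and 2 fell (Acta2 and Lmod1), beside the same 20.8% of all genes. Their sums were 3726 to 4569 CPM in static Tsp1KO and 4430 to 5234 CPM in static WT cells. For stretch, 1 smooth muscle marker fell in Tsp1KO cells (Lmod1), 1 rose in WT cells (Cnn1), and the fibroblast marker Scara5 fell in both genotypes. Stretch called 0.796% of all genes in Tsp1KO cells and 0.742% in WT cells. No marker of these lists was at 0 in all 12 libraries, and the part of other cells in the differences of the retinoic acid genes was not tested.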

How the data were processed

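RNA was sequenced from 12 libraries of rat aortic smooth muscle cells in 4 groups of 3. Per the labels' protocols and the submitters' processing notes, the authors selected poly(A) RNA, made directional libraries, sequenced paired ends of 36 bases, and used CLC Genomics Workbench 12.0 with the build Rnor_6.0. The deposited counts are whole exon reads per gene, with multi-mapped reads included, and the deposited RPKM values are reads scaled to exon length and library size, per the file headers. The deposited exon length per gene is another value of the table. The authors' fold change is a signed score, and their deposited p-values are false discovery rates of their own test. Strand setting and annotation release are not given in the sources used here, so overlapping or antisense genes cannot be told apart. Deposited gene starts count from 0 and were shifted by 1.

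Total exon counts were filtered with filterByExpr (minimum count 10), scaled by TMM and fitted in 1 edgeR 4.0.16 model (R 4.3.3) with a mean for each group over all 12 libraries and 8 residual degrees of freedom. Quasi-likelihood F tests were adjusted by Benjamini-Hochberg over 14825 genes. Standard errors are Wald errors from that fit. CPM uses TMM-scaled library sizes. The scripts were tested on simulated data. Alternatives were DESeq2 1.42.0, DESeq2 size factors, upper-quartile scaling, no filter, unique exon reads, limma 3.58.1 on log2(RPKM + 0.1), the replicate block, libraries 1 and 2 alone, and leaving out each library.

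Same-numbered libraries of different groups correlated in their deviations from the group means, at r = 0.16 to 0.23 for number 1, 0.12 to 0.26 for number 2 and 0.40 to 0.56 for number 3 (6 pairs each). Libraries of different number gave -0.40 to 0.29 (36 pairs). For numbers 1 and 2 the values lay within the range of different numbers, and only those of number 3 lay above it. The labels' library numbers were used as a block, but pairing was not shown for numbers 1 and 2.

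The 9 genes and the gene lists were chosen with earlier results of these data known. Of each list, up to 4 called genes with the largest change are named in the comparison described, or the 2 of highest CPM where none was called; Rdh10, the markers named and the block's calls were added after their values were seen. Genes like Aldh1a3 are the 8 of highest r with a mean log2 CPM of at least 2 (prior count 2). Some listed genes were not analysed here, and a few that the naming rule covers are not reported here. Intervals and SDs over 3 libraries limit the precision of each level, beside 16766965 to 38024110 exon reads per library. Promoter windows and their motif matches come from RefSeq on GRCr8, and the deposited coordinates are on Rnor_6.0.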

Additional observations from a re-analysis of the deposited data

How the results depend on the processing

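For all genes, the number called for stretch in WT cells (110) was 357 in DESeq2, 944 with the replicate block and 528 in libraries 1 and 2 alone, and 23 to 118 with a library left out. For stretch in Tsp1KO cells (118) it was 76 with no filter, 294 in DESeq2, 656 with the block and 439 in libraries 1 and 2, and 24 to 122 with a library left out. For Tsp1KO minus WT it was 5569 with the block and 4739 in libraries 1 and 2 in static culture (3085; 2439 to 3226 with a library left out), and 5531 and 4985 under stretch (3056; 2350 to 3192). The interaction (0) gave 9 in DESeq2, 2 with the block and 3 in libraries 1 and 2, and 0 with any library left out. Of the 8 retinoic acid genes, stretch in Tsp1KO cells (0) gave 1 in DESeq2 and 1 with the block. Tsp1KO minus WT under stretch (1) gave 2 in DESeq2, 4 with the block and 2 in libraries 1 and 2, and 0 to 2 with a library left out. In static culture (4) it was 5 in DESeq2, 5 with the block and 5 in libraries 1 and 2. There it was 3 with DESeq2 size factors, 3 with no filter and 2 to 4 with a library left out. The interaction (0) gave 1 in DESeq2, 1 with the block and 1 in libraries 1 and 2.

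Signs turned only in changes that the test without the block did not call. Aldh1a1 for stretch in Tsp1KO cells was 0.0557 from RPKM, 0.43 in libraries 1 and 2 and -0.67 to 0.37 with a library left out. Rara for Tsp1KO minus WT in static culture was 0.00861 from RPKM and -0.10 to 0.0815 with a library left out, and under stretch -0.0552 to 0.0573. Dhrs3 for stretch in WT cells was -0.37 to 0.00902. In the interaction, Aldh1a1 was -0.0021 with no filter and -0.42 to 0.61 with a library left out, and Crabp2 was -0.12 from unique reads, -0.43 in libraries 1 and 2 and -0.24 to 0.35. Dhrs3 was -0.0913 to 0.29, Rara -0.0606 to 0.12 and Rarb -0.62 to 0.11 there. The causes were not tested. Beside the calls given in the text, the replicate block changed no other call of the 8 genes. Rarb, Aldh1a1 and Crabp2, with the fewest reads of the tested genes, are limited by counting; Aldh1a2 was too low to test.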

Other observations

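Aldh18a1, a mitochondrial enzyme of proline synthesis, had 28423 exon reads over the 12 libraries, of which 0% were counted as mapping uniquely, so its level of 67.8 ± 51.0 CPM in static Tsp1KO and 102 ± 18.3 CPM in static WT cells (SD, n = 3 each) rests on shared reads alone. Aldh9a1 and Aldh3b1 also had only 61.2% and 46.2% unique exon reads. Cyp26a1, a relative of Cyp26b1 that also degrades retinoic acid, stayed at 0.356 ± 0.145 CPM in static Tsp1KO and 0.367 ± 0.116 CPM in static WT cells.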
